A study of Plutella xylostella with 12 samples.

Results

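Gene-level RNA was followed for PxSP1, a storage protein gene of the diamondback moth Plutella xylostella, and for 3 other genes: its scaffold neighbours LOC105388120 and LOC105388121, and LOC105381553 on another scaffold. These 4 of the 19364 listed features were chosen by name because their reads were higher in females than in males at 25 °C. That difference is therefore described here and not tested. The libraries were made from whole larval bodies in the middle of the fourth instar, from a laboratory population first collected from cabbage, with 8 larvae pooled in each library. All larvae were kept on cabbage at 25 °C up to the start of the third instar. The groups were females and males then moved to 10 °C and females and males kept at 25 °C, with 3 libraries each (female 25 °C libraries carry the numbers 1, 2 and 4). In pooled whole bodies, fewer cells of a type and less RNA per cell cannot be told apart.

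Insect storage proteins are hexamerins, large blood proteins that are made by the larval fat body, secreted into the hemolymph and taken back up before pupation. They serve as a store of amino acids for building adult tissues and, in females, eggs. In the silkworm Bombyx mori, storage protein 1 is rich in methionine and accumulates in female larvae, while the arylphorins, rich in aromatic amino acids, are made in both sexes. Of the 4 genes, PxSP1 alone carries a symbol in the annotation used here. The other 3 are given by identifier, with no function assigned.

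Libraries held from 10183278 to 30106219 gene reads. Genes that separated the sexes at 25 °C did not separate them by label at 10 °C. Over 395 genes at least 16-fold higher in males at 25 °C, none of them among the 4 genes, the median level as a percent of the male 25 °C mean was 98.2, 103 and 98.6 in the male 25 °C libraries and 0, 2.15 and 0 in the female ones. At 10 °C it was 0, 8.86 and 33.6 in the libraries labelled female and 34.8, 55.5 and 0.0969 in those labelled male. On this measure the library labelled female 10 °C replicate 3 lay close to the library labelled male 10 °C replicate 1, and the library labelled male 10 °C replicate 3 lay with the females. Whether labels, temperature or stage set these values was not tested. Differences and ratios of the 4 genes from the main fits of all reads are given with and without both of these libraries. Correlations, counts of groups that do not overlap, and results on unique or junction reads include both libraries.

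PxSP1 (LOC105388119) lies on scaffold NW_011952208 at 540138 to 543435 on the plus strand, in the coordinates of the deposited tables, with 5 exons and an exon length of 2409 bp. LOC105388120 (546070 to 548955) and LOC105388121 (549582 to 554769) follow it on the minus strand, each with 5 exons. The gap between PxSP1 and LOC105388120 was 2635 bp and the gap between LOC105388120 and LOC105388121 was 627 bp. The scaffold also holds both arylphorin genes, PxAry1 and PxAry2. PxAry2 ends 130157 bp before PxSP1, with 4 listed genes between them. LOC105381553 (scaffold NW_011952058, 1138622 to 1141800, minus strand) likewise has 5 exons, with an exon length of 2509 bp. It lies within the span of LOC105381574, a gene of 159745 bp on the plus strand. Whether counting used strand is not stated here, so reads of these overlapping genes cannot be told apart with certainty.

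The 4 genes spanned a wide range of levels. By mean level over all libraries, in CPM, reads relative to library size after TMM scaling, LOC105388120 ranked 6, LOC105381553 ranked 10 and PxSP1 ranked 43 among 15027 genes tested. LOC105388121 ranked 6131. Per kilobase of exon, the mean levels were 4100 CPM for LOC105388120, 3193 for LOC105381553, 1319 for PxSP1 and 5.18 for LOC105388121, beside 5169 for PxAry1 and 4872 for PxAry2. On that scale the 4 genes ranked 44, 68, 145 and 6411. The ranks of LOC105381553 rest on reads of which 13.4% were unique. Together the 4 genes took from 0.440% of gene reads (male 25 °C replicate 2) to 5.40% (female 25 °C replicate 2).

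PxSP1 stood at 8510, 8845 and 4049 CPM in the female 25 °C libraries and at 1198, 713 and 1192 CPM in the male 25 °C libraries. The lowest female value was 3.38 times the highest male value. At 10 °C it stood at 5416, 4455 and 832 CPM in the libraries labelled female and at 2437, 1312 and 2965 CPM in those labelled male. The sexes overlapped at 10 °C, because the library labelled female 10 °C replicate 3 lay below all the males at that temperature.

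LOC105388120, the convergent neighbour of PxSP1, varied over the libraries much as PxSP1 did, at a higher level. It stood at 24132, 23008 and 14746 CPM in 25 °C females and at 4838, 2782 and 4798 CPM in 25 °C males. At 10 °C it stood at 13373, 11600 and 2820 CPM in the libraries labelled female and at 7728, 4568 and 7762 CPM in those labelled male. On TMM-scaled CPM, female levels at 10 °C lay below all female levels at 25 °C, while male levels at the 2 temperatures overlapped.

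LOC105388121 was read far less, with 47 to 311 reads per library. It stood at 22.6, 16.9 and 35.7 CPM in 25 °C females and at 6.61, 5.00 and 5.81 CPM in 25 °C males. At 10 °C it stood at 12.1, 13.5 and 5.50 CPM in the libraries labelled female and at 2.94, 4.53 and 18.8 CPM in those labelled male. Its highest value at 10 °C came from the library labelled male 10 °C replicate 3, which is low in male-high genes.

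LOC105381553 stood at 20580, 14226 and 18762 CPM in 25 °C females and at 2700, 2184 and 2839 CPM in 25 °C males. Its lowest female value at 25 °C was 5.01 times its highest male value, the widest gap of the 4 genes. At 10 °C it stood at 11168, 6083 and 1806 CPM in the libraries labelled female and at 5931, 3568 and 6398 CPM in those labelled male. On TMM-scaled CPM, all males at 10 °C lay above all males at 25 °C, and all females at 10 °C below all females at 25 °C.

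The groups of 25 °C did not overlap, with females higher, in 4 of the 4 genes, which follows from their choice, and in 9.72% of the 15027 genes tested. At 10 °C such a separation was seen in 0 of the 4 genes and in 2.7% of genes tested. All 10 °C females lay below all 25 °C females in LOC105388120, LOC105388121 and LOC105381553 and in 9.14% of genes tested. That separation held on TMM-scaled CPM only. As a share of gene reads, without TMM scaling, the female groups overlapped in each of these genes. LOC105388120 took 1.91% in female 10 °C replicate 2 against 0.866% in female 25 °C replicate 4. LOC105381553 took 1.28% in female 10 °C replicate 1 against 1.10% in female 25 °C replicate 4. All 10 °C males lay above all 25 °C males in PxSP1 and LOC105381553 and in 26% of genes tested. Every 10 °C female below the 25 °C female mean together with every 10 °C male above the 25 °C male mean was seen in 3 of the 4 genes, LOC105388121 being the other, and in 1.85% of genes tested. As a share of gene reads, without TMM scaling, LOC105381553 alone kept this pattern. The comparisons with 25 °C use the libraries that chose the genes, and nothing is read from their counts.

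**Figure D1:**
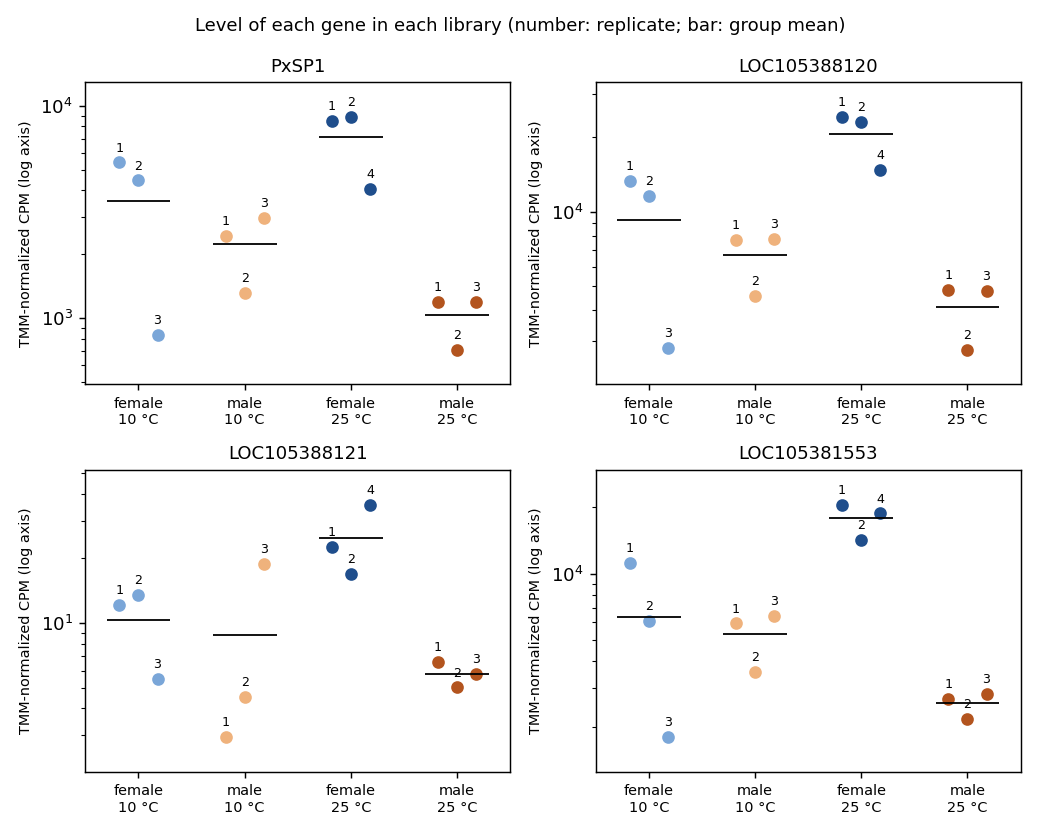
TMM-normalized CPM (log axis) of PxSP1, LOC105388120, LOC105388121 and LOC105381553 in each of the 12 libraries, by group; numbers are replicates and bars are group means. The sexes do not overlap at 25 °C for any of the 4 genes, which follows from their choice (9.72% of all genes tested), and overlap at 10 °C for each of them, with female 10 °C replicate 3 at 832 CPM for PxSP1.

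Between the 25 °C groups, the contrast that chose the genes, PxSP1 differed by a log2 fold change of 2.79 ± 0.66 (SE, n = 3 per group), LOC105388120 by 2.32 ± 0.58, LOC105388121 by 2.10 ± 0.65 and LOC105381553 by 2.79 ± 0.60. In the same edgeR quasi-likelihood fit of all 12 libraries, 0% of 15027 genes passed a Benjamini-Hochberg adjusted p below 0.05 in this contrast (3369 genes had an unadjusted p below 0.05), and 2041 passed with DESeq2, 4667 with limma voom. Nothing is read from these counts about the 4 genes.

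The levels of PxSP1, LOC105388120 and LOC105381553 varied together across libraries, and LOC105388121 followed them less closely. Over the 12 libraries, the Pearson correlation of log2 CPM was 0.988 between PxSP1 and LOC105388120, 0.939 between PxSP1 and LOC105381553, and 0.961 between LOC105388120 and LOC105381553. With LOC105388121 it was 0.735 to 0.790. Within the 6 libraries of 10 °C, which had no part in the choice of genes, PxSP1 had 0.994 with LOC105388120, 0.949 with LOC105381553 and 0.603 with LOC105388121. There LOC105388120 had 0.956 with LOC105381553, and LOC105388121 had 0.524 with LOC105388120 and 0.469 with LOC105381553. These values describe libraries that share depth, scaling and group structure.

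Whether the female excess was also present at 10 °C was tested by comparing libraries that had no part in choosing the genes. The estimate of spread came from the fit of all 12 libraries. All 4 estimates were above 0, and none of the 4 genes passed the test. In simulated data this test called 0 of 50 genes changed 2-fold, so it cannot exclude differences of that size. The log2 fold change of female over male at 10 °C was 0.67 ± 0.62 for PxSP1, 0.47 ± 0.56 for LOC105388120, 0.25 ± 0.62 for LOC105388121 and 0.26 ± 0.56 for LOC105381553 (SE, n = 3 per group, edgeR quasi-likelihood test, adjusted p = 1 for each). In this contrast 0% of 15027 genes passed (120 had an unadjusted p below 0.05), and 0 passed with DESeq2 or voom, which gave 214 and 228 genes at an unadjusted p below 0.05. Without the third library of each 10 °C group, the log2 differences were 1.39 ± 0.60, 1.02 ± 0.58, 1.78 ± 0.49 and 0.86 ± 0.56 in the same order (n = 2 per 10 °C group, edgeR adjusted p from 0.515 to 0.879). Voom with sample quality weights turned the direction of PxSP1, LOC105388120 and LOC105381553, at -0.77 ± 0.75, -0.69 ± 0.64 and -0.95 ± 0.69.

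For each of the 4 genes, both group means at 10 °C lay between the female and male means at 25 °C. Relative to 25 °C, the log2 change in females was -1.00 ± 0.62 for PxSP1, -1.15 ± 0.56 for LOC105388120, -1.27 ± 0.63 for LOC105388121 and -1.49 ± 0.57 for LOC105381553. In males it was 1.11 ± 0.63, 0.69 ± 0.56, 0.59 ± 0.63 and 1.04 ± 0.56 in the same order. These changes use the 25 °C libraries in which the genes were chosen to differ, so they are descriptions without a test. Without the third library of each 10 °C group they were -0.53, -0.72, -0.96 and -1.05 in females and 0.86, 0.58, -0.64 and 0.89 in males, so that LOC105388121 turned its sign in males. Voom with quality weights gave larger female changes, of -2.50, -2.39, -1.66 and -2.72.

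Averaged over both sexes, none of the 4 genes passed the test between 10 °C and 25 °C. PxSP1 had a log2 change of 0.06 ± 0.44 (edgeR adjusted p = 0.929), LOC105388120 of -0.23 ± 0.39 (0.66), LOC105388121 of -0.34 ± 0.44 (0.56) and LOC105381553 of -0.22 ± 0.40 (0.672). In this contrast 23% of 15027 genes passed (2054 higher and 1399 lower at 10 °C), and the median log2 change of all genes was 0.23. Without the third library of each 10 °C group, the 4 values were 0.17, -0.07, -0.80 and -0.08, and 8 genes passed. The estimate for PxSP1 lay close to 0 and its sign turned in 7 of 23 alternative fits. For LOC105381553 the result depended on which reads were counted, as described with its uniquely mapped reads.

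**Figure D2:**
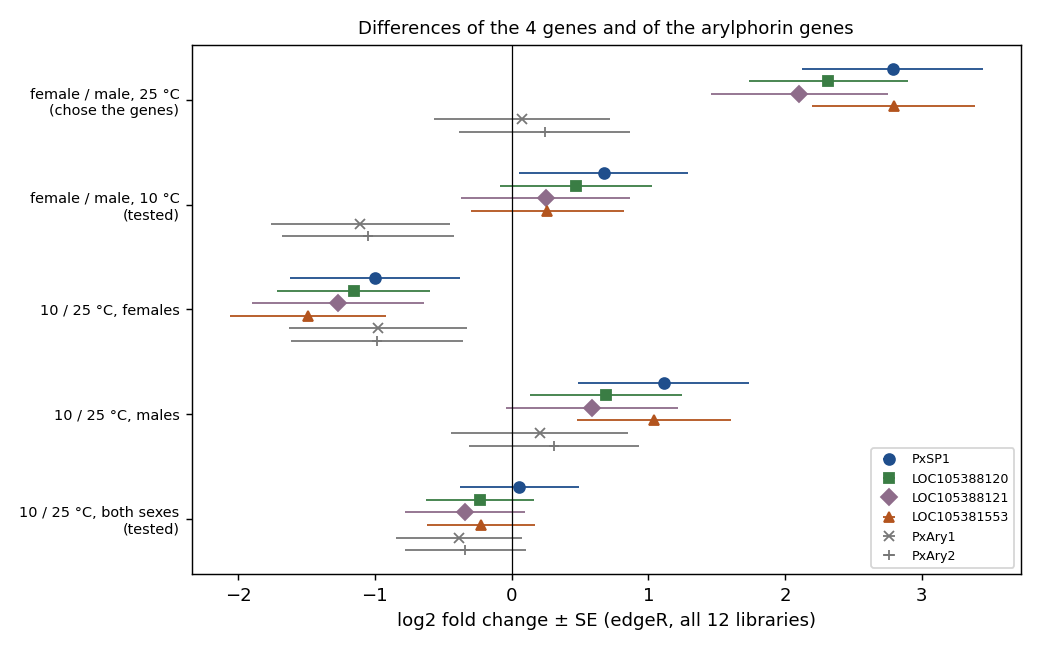
Log2 fold changes ± SE (edgeR fit of all 12 libraries) of the 4 genes and of PxAry1 and PxAry2 in 5 comparisons. The 25 °C sex differences of the 4 genes, which chose them, lie between 2.10 and 2.79; at 10 °C they lie between 0.25 and 0.67, each with an SE of at least 0.56.

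The proportions among the 4 genes were compared between temperatures, since ratios had no part in choosing them. The mean log2 ratio of PxSP1 to LOC105388120 was -1.55 ± 0.22 at 10 °C and -1.79 ± 0.28 at 25 °C (SD, n = 6), a difference of 0.24 (two-sided exact permutation test within sex, p = 0.095, adjusted p = 0.57 over 6 pairs). The ratio of PxSP1 to LOC105381553 was -1.07 ± 0.34 at 10 °C and -1.37 ± 0.51 at 25 °C (exact permutation p = 0.31, adjusted p = 0.75). The ratio of LOC105388120 to LOC105381553 differed by 0.05 (exact permutation p = 0.8, adjusted p = 0.8), and the 3 ratios with LOC105388121 had exact permutation p from 0.375 to 0.735. None of the 6 ratios passed, with the third 10 °C libraries or without them (adjusted exact permutation p from 0.18 to 0.81), and the smallest p this design allows with all libraries is 0.005. Over all libraries the log2 ratio of PxSP1 to LOC105388120 stayed between -2.01 and -1.30, the narrowest range of the 6.

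Only a small part of the reads of LOC105381553 could be placed with certainty. Of its reads over all libraries, 13.4% mapped uniquely, from 0.537% in female 25 °C replicate 4 to 26.1% in male 10 °C replicate 1. In PxSP1, LOC105388120 and LOC105388121 the lowest unique shares in any library were 99.89, 99.89 and 100% of reads. The unique reads of LOC105381553 were about as many as its reads across exon-exon junctions, at a ratio of 0.992 to 1.04 over the libraries. On unique reads it was higher at 10 °C than at 25 °C averaged over sexes, at a log2 change of 2.32 ± 0.75 (edgeR adjusted p = 0.045), against -0.22 ± 0.40 on all reads. That average joined estimates of opposite sign, -0.58 ± 1.01 in females and 5.22 ± 1.20 in males, which are described without a test. Between temperatures, averaged over sexes, 3450 of 14444 genes passed on unique reads. The unique reads of LOC105381553 numbered 208, 162 and 379 in the 25 °C male libraries. On unique reads its ratios to PxSP1 and LOC105388120 differed between temperatures too, by -2.44 and -2.68 (PxSP1 or LOC105388120 over LOC105381553, exact permutation test, adjusted p = 0.03 for both). The unique share of LOC105381553 was 0.537 to 1.02% in female 25 °C replicate 4 and the 25 °C males. It was 9.76 and 16.3% in female 25 °C replicates 1 and 2, 13.0 to 21.1% in 10 °C females and 3.71 to 26.1% in 10 °C males. These differences hold the unique share as well as the level of LOC105381553, and the part of each was not tested. Reads that are not unique match other places too, so its level cannot be assigned to this locus alone.

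**Figure D3:**
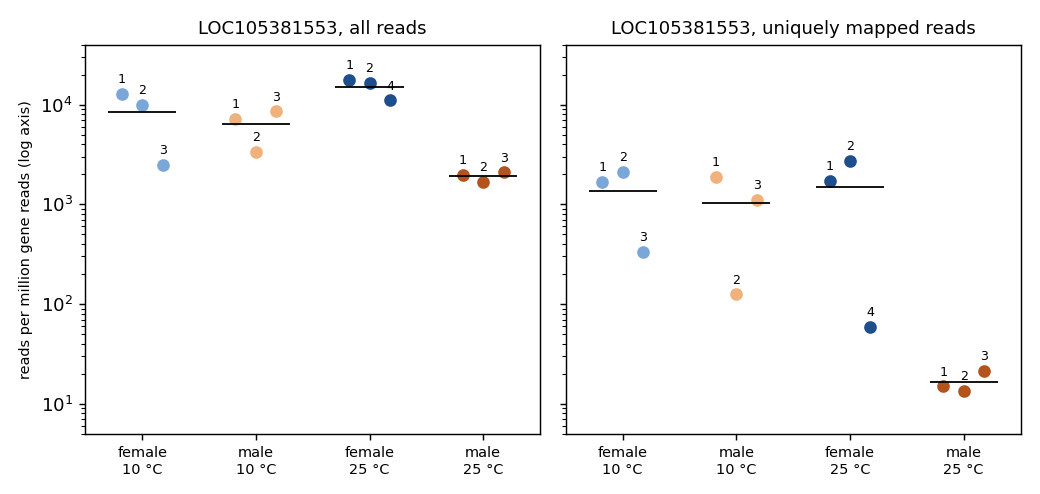
Reads of LOC105381553 relative to all gene reads of a library (log axis) in each library by group, from all reads (left) and from uniquely mapped reads (right); numbers are replicates and bars are group means. Unique reads fall to 0.537% of all its reads in female 25 °C replicate 4 and to between 0.749% and 1.02% in the male 25 °C libraries.

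The share of exon reads that cross an exon-exon junction differed between libraries, also within groups, in these genes and in the median over genes. For PxSP1 it was 14.7, 19.3 and 1.70% in the female 25 °C libraries and 2.27, 2.08 and 2.91% in the male ones. At 10 °C it was 18.0, 24.1 and 16.7% in the libraries labelled female and 27.6, 7.80 and 16.7% in those labelled male (95% Wilson limits within 0.636 percentage points of each value, counting error only). All males and 1 female library of 25 °C were low. The same libraries were low for LOC105388120 (1.54 to 3.78% there, 6.50 to 21.2% elsewhere) and for LOC105381553 (0.533 to 1.03% there, 3.72 to 25.9% elsewhere). The median share over 3553 multi-exon genes with at least 100 exon reads in every library was 29.0% in female 25 °C replicate 4, 34.9 to 36.0% in the 25 °C males and 43.5 to 63.0% in the other 8 libraries. Of these genes, 25.9% had a highest share at least 8 times the lowest, and for PxSP1 the highest was 16.2 times the lowest. Over the exon reads of all genes together, the libraries differed less. That share was 45.8% in female 25 °C replicate 4, 46.1 to 48.8% in the 25 °C males and 46.3 to 56.5% in the other 8 libraries.

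**Figure D4:**
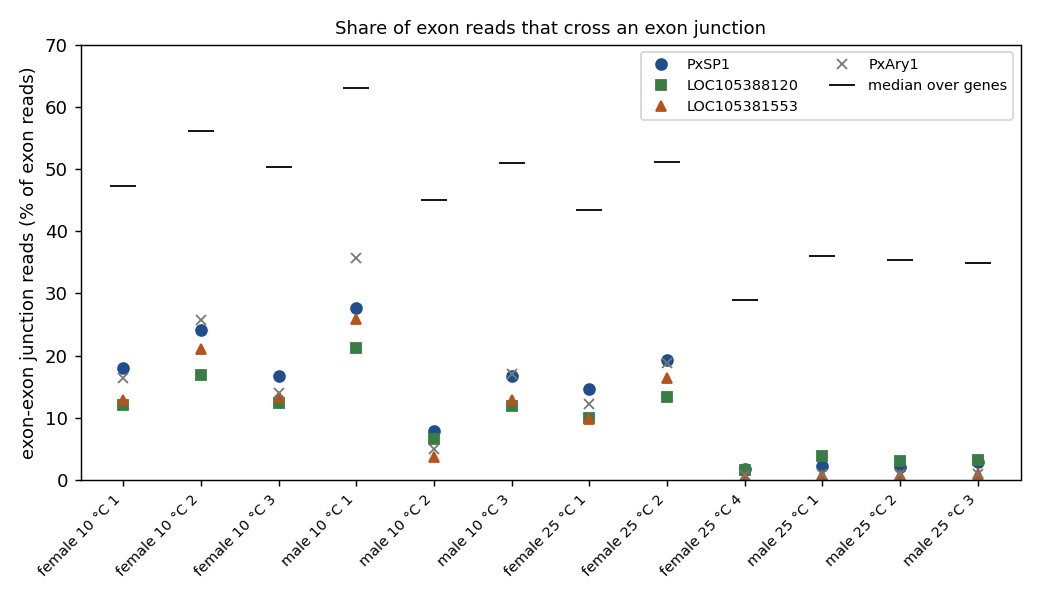
Exon-exon junction reads as a percent of exon reads in each library, for PxSP1, LOC105388120, LOC105381553 and PxAry1, with the median over 3553 multi-exon genes as a dash. Female 25 °C replicate 4 and the 3 male 25 °C libraries have the lowest shares, between 1.70% and 2.91% for PxSP1.

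Female 25 °C replicate 4 had a junction share near that of the 25 °C males for PxSP1 (1.70%) and below theirs for LOC105388120 (1.54% against 3.09 to 3.78%). PxSP1 stood there at 4049 CPM against 713 to 1198 CPM in the 25 °C males, and LOC105381553 at 18762 against 2184 to 2839 CPM. With that library as the lone 25 °C female, the log2 difference from the males was 1.94 ± 0.83 for PxSP1, 1.81 ± 0.78 for LOC105388120, 2.60 ± 0.81 for LOC105388121 and 2.84 ± 0.79 for LOC105381553, where the lone library is assumed to vary like the other groups. These values describe 1 library in the contrast that chose the genes, and they are no test of the female excess. Counting junction reads alone gave larger 25 °C sex differences, of 5.01 ± 1.10 for PxSP1, 3.28 ± 0.88 for LOC105388120, 2.95 ± 0.83 for LOC105388121 and 5.61 ± 1.13 for LOC105381553. Counting junction reads also moved the temperature estimates averaged over sexes, to 1.52 ± 0.67 for PxSP1 (edgeR adjusted p = 0.0946) and 1.96 ± 0.68 for LOC105381553 (edgeR adjusted p = 0.0478). On junction reads 3214 of 11531 genes passed between temperatures. These 2 settings were chosen after seeing the data. The part that the junction share has in the levels was not tested.

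Intron reads were a larger share of PxSP1 than of LOC105388120 and LOC105381553 in every library. They made up 4.57 to 11.8% of PxSP1 reads in the 10 °C libraries, 6.24 and 6.46% in female 25 °C replicates 1 and 2, 19.0% in female 25 °C replicate 4 and 14.4 to 20.3% in the 25 °C males. In LOC105388120 they made up 0.0692 to 0.770% and in LOC105381553 0.00739 to 0.392%. The libraries with the highest intron share of PxSP1 were those with the lowest junction share.

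At 25 °C the opposite order of PxSP1 and the male-high genes was fixed by the choice of both, so the 10 °C libraries alone are described. The library labelled male 10 °C replicate 3, with the male-high genes at 0.0969% of the male mean, had the highest PxSP1 of the 10 °C males, at 2965 CPM. Female 10 °C replicates 1 and 2, with these genes at 0 and 8.86%, had more PxSP1, at 5416 and 4455 CPM. The library labelled female 10 °C replicate 3, with the male-high genes at 33.6%, had the lowest PxSP1 of the 10 °C libraries. Male 10 °C replicates 1 and 2, at 34.8 and 55.5%, had 2437 and 1312 CPM. At nearly equal levels of the male-high genes, male 10 °C replicate 1 therefore had more PxSP1 than the library labelled female 10 °C replicate 3.

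**Figure D5:**
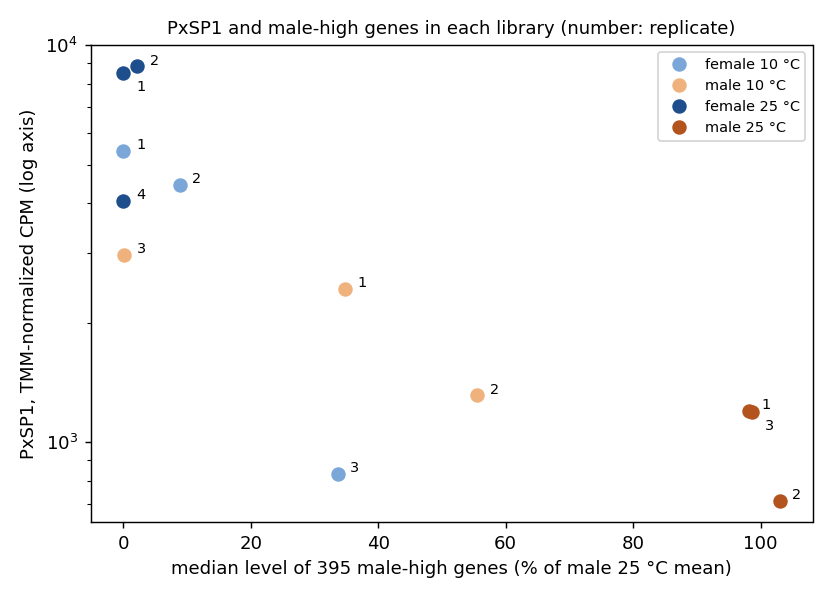
PxSP1 in TMM-normalized CPM (log axis) against the median level of 395 male-high genes, as a percent of the male 25 °C mean, in each of the 12 libraries; numbers are replicates. The choice of both gene sets fixed the order of the 25 °C libraries. At 10 °C, male replicate 3 lies at 0.0969% with 2965 CPM and female replicate 3 at 33.6% with 832 CPM.

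The arylphorin genes PxAry1 and PxAry2, the other storage protein genes with a symbol, overlapped between the sexes at 25 °C. Neither passed the test between the sexes at 10 °C or between temperatures. PxAry1 stood at 10166, 4940 and 5272 CPM in the libraries labelled female 10 °C and at 32301, 5771 and 5801 CPM in those labelled male 10 °C. At 25 °C it stood at 17546, 10788 and 11756 CPM in females and at 13245, 12385 and 12382 CPM in males. The log2 difference of female over male at 10 °C was -1.11 ± 0.65 for PxAry1 and -1.05 ± 0.63 for PxAry2 (edgeR adjusted p = 1 for both). Both rested on male 10 °C replicate 1: without it they were 0.23 ± 0.47 and 0.21 ± 0.46. Averaged over sexes, PxAry1 had a log2 difference of -0.38 ± 0.46 between 10 °C and 25 °C (edgeR adjusted p = 0.526) and PxAry2 of -0.34 ± 0.44 (0.563).

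Other genes of the hormonal and tissue setting were sought by symbol, which only 39 of the 19364 listed features carried. A list without a match therefore does not mean that its genes are absent. The lists for yolk and lipid carriers, juvenile hormone, sex determination and testis matched 0 symbols, the ecdysone list 1 and the midgut list 1. EcRA, an ecdysone receptor gene, had log2 differences of 0.40 ± 0.38 between the sexes at 10 °C (edgeR adjusted p = 1) and 0.38 ± 0.27 between temperatures (0.284). Tryp_SPc1, a serine protease gene of the trypsin type, had -1.30 ± 0.67 between the sexes at 10 °C (edgeR adjusted p = 1) and -0.97 ± 0.47 between temperatures (0.129). So 0 of the 4 listed genes besides PxSP1 passed in either direction.

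The genes around the members are given for comparison, without a test at 25 °C. On the PxSP1 scaffold, the 5 tested flanking genes (LOC105388116 and LOC105388118 before it, LOC105388122, LOC105388123 and LOC105388131 after LOC105388121) had log2 differences of -0.36 to 0.62 between the sexes at 25 °C. LOC105388130 had too few reads to be tested. The 6 genes flanking or overlapping LOC105381553 had log2 differences of -5.22 to 1.89. LOC105388122, the nearest gene past LOC105388121, stood at 30.5 ± 10.0 CPM in 25 °C females and 39.1 ± 3.02 in 25 °C males (SD, n = 3). LOC105381574, which spans LOC105381553, stood at 67.4 ± 48.5 and 20.5 ± 3.15 CPM, a log2 difference of 1.71 ± 0.84. Between temperatures, the flanking genes LOC105388131 (1.11 ± 0.37, edgeR adjusted p = 0.0496) and LOC105381554 (1.06 ± 0.33, edgeR adjusted p = 0.0428) rose at 10 °C. LOC105388131 passed in 7 of 23 alternative fits and LOC105381554 in 10 of 23. In this contrast 23% of the 15027 genes tested passed, so nothing is read from these 2 calls about the surroundings of the members.

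The genes whose log2 CPM was most like that of PxSP1 over the 12 libraries, the members and overlapping genes left out, were LOC105390973 (Pearson r = 0.942), LOC105398194 (0.914), LOC105390770 (0.879), LOC105386528 (0.877) and LOC105398586 (0.863), of 15022 genes ranked. All 5 were weakly expressed, with mean levels of 0.651 to 6.07 CPM. LOC105390973 stood at 4.80 ± 2.62 CPM in 25 °C females and 0.0255 ± 0.0441 in 25 °C males (SD, n = 3), and at 2.22 ± 1.98 and 0.739 ± 1.21 CPM in the libraries labelled female and male at 10 °C. By Spearman correlation 3 of these 5 were again among the first 5, and within the 10 °C libraries 0 were. Only 39 of the 19364 listed features carried a symbol or synonym. Among those ranked, the highest were Gss (0.515, rank 1793), the Hox gene Ubx (0.507, rank 1927) and actin (0.503, rank 1992). Gss, Ubx and actin lay below the members, which were chosen together in the 25 °C contrast. LOC105390973 lay just above the member LOC105381553 (0.939), and all 5 genes named first lay above LOC105388121 (0.735). These values are descriptions over 12 libraries that share the sex contrast at 25 °C.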

How the data were processed

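RNA-seq was made from 12 pools of whole larvae with random-primed poly(A) libraries and paired reads, per the labels' protocols. The sources used here state no aligner, counting tool, build or annotation. The authors deposited, per the file headers, whole-number read counts per gene (total, unique, exon, exon-exon and intron reads) with the unique fraction of exon reads. TPM and RPKM values made by the authors stand beside them and entered no test. Of 18895 locus identifiers, 10698 matched a RefSeq gene table of another assembly, used for symbols alone.

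Total gene read counts were tested with edgeR 4.0.16 in R 4.3.3: TMM scaling, the expression filter (at least 10 reads for a library of median size, 15 in total), a robust quasi-likelihood fit of 4 group means over 12 libraries, and Benjamini-Hochberg adjustment over 15027 genes, called below 0.05. An SE was taken as the size of the log2 change over the root of its F statistic. Scaling factors ran from 0.588 (female 25 °C replicate 4) to 1.65 (female 10 °C replicate 2), with 0.737 to 0.774 in the 25 °C males. Exact permutation tests enumerated all 400 arrangements of temperature within sex, with Benjamini-Hochberg adjustment by scipy 1.17.1. The procedure was tested on simulated data with 50 changed genes of each size. Between the sexes at 10 °C it called 0 of them at 2-fold, 10 at 4-fold and 32 at 8-fold. Between temperatures it called 2, 32 and 42. Each comparison had 3 false calls. Libraries are separate pools per the labels, so p-values reflect the spread between pools. Libraries within a group differed by more than counting error in every pair.

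Alternatives were unique, exon or junction reads, DESeq2 1.42.0 size factors and Wald test, limma 3.58.1 voom with quality weights, no filter or 1 CPM in 3 libraries, fits of only the groups compared, a block for the replicate number, and fits without single or doubted libraries. The members, lists and tests were chosen with earlier results of these data known. Genes named are the 4 members, 3 listed genes on each side, storage protein, hormone, sex, midgut and testis genes by symbol, and the genes most correlated with PxSP1.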

Additional observations from a re-analysis of the deposited data

Results flagged for a closer look

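In TMM-scaled CPM of PxSP1, LOC105388120 and LOC105381553, every 10 °C library labelled female lay below the mean of the 25 °C females. Every 10 °C library labelled male lay above the mean of the 25 °C males, and 1.85% of the 15027 genes tested had this pattern. Because the genes were chosen for far-apart 25 °C groups, nothing is read from that count. As a share of gene reads, without TMM scaling, the pattern was absent in PxSP1 and LOC105388120. There female 10 °C replicate 2 lay above the 25 °C female mean, at 0.734% for PxSP1 (25 °C females 0.732, 1.04 and 0.238%) and 1.91% for LOC105388120 (2.08, 2.69 and 0.866%). The log2 change at 10 °C in females minus that in males was -2.11 ± 0.88 for PxSP1, -1.85 ± 0.79 for LOC105388120 and -2.53 ± 0.80 for LOC105381553 (SE). In LOC105388121, without this pattern, it was -1.85 ± 0.89. The difference was not tested, because it holds the 25 °C contrast that chose the genes. Without the third library of each 10 °C group it was -1.39 ± 0.76, -1.30 ± 0.75, -1.94 ± 0.73 and -0.33 ± 0.62 in the same order, and with voom -3.66, -3.09, -3.82 and -1.75.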

How the results depend on the processing

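The count of genes passing between the sexes at 10 °C was 0 in every alternative run. Between temperatures, 3453 genes passed in the edgeR fit, 5932 with the DESeq2 Wald test, 7629 with voom, 8 without the third library of each 10 °C group, 6438 with female 25 °C replicate 4 as the lone 25 °C female, and 55 (without male 25 °C replicate 2) to 5803 (without female 25 °C replicate 2) on leaving out 1 library. Between the sexes at 25 °C, 0 genes passed in the edgeR fit, 2041 with DESeq2, 4667 with voom, 592 in the fit of these groups alone, 550 without the third 10 °C libraries, 13 with the lone female, and 0 to 1745 on leaving out 1 library. The same replicate number did not pair libraries: 2 of 15 same-numbered pairs had deviations correlated above 0.1 (-0.783 to 0.602). With the replicate number as a block, 20 genes passed between temperatures and PxSP1 was at -0.083.

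Sign changes of the temperature estimate were these. PxSP1 was at -0.68 with voom and between -0.16 and 0.29 on leaving out 1 library (below 0 in 5 of 12). LOC105381553 was at 2.32 on unique and 1.96 on junction reads. LOC105388120 was at 0.73 on junction reads and 0.038 with the lone female, LOC105388121 at 0.44, PxAry1 at 2.02 and PxAry2 at 1.95 on junction reads. EcRA passed on junction reads alone (2.65). Between the sexes at 10 °C, voom gave -0.77, -0.69 and -0.95 for PxSP1, LOC105388120 and LOC105381553. Leaving out 1 library gave -0.44 to 0.70 for LOC105381553, -0.17 to 1.47 for LOC105388121, -0.081 to 0.63 for EcRA, -1.53 to 0.23 for PxAry1 and -1.45 to 0.21 for PxAry2. The ratios of PxSP1 and LOC105388120 to LOC105381553 were -2.44 and -2.68 on unique reads, where 2 of 6 ratios passed against 0 on all reads, and -0.36 and -1.19 on junction reads. On leaving out 1 library, LOC105388120 to LOC105381553 was between -0.080 and 0.18, LOC105388120 to LOC105388121 between -0.11 and 0.56, and LOC105388121 to LOC105381553 between -0.49 and 0.15. Of the 5 genes most like PxSP1, 3 were shared with Spearman correlation and 0 with the 10 °C libraries alone. The causes were not tested. Counts of 47 to 311 reads limit LOC105388121.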
